A study of Mus musculus with 7 samples.

Results

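The genes of prostaglandin and leukotriene synthesis and sensing examined here are the enzymes Hpgds and Ptgs2, the lipoxygenase partner Alox5ap and the receptors Ptgdr2, Ptger2, Ptger4, Ptgir, Ltb4r1 and Cysltr1. They were taken by their symbols, 9 genes of the 19736 symbols listed per library, and all 9 were found. They were compared between regulatory T (Treg) cells that carry CCR6, the receptor of the chemokine CCL20, and Treg cells that lack it. The 3 libraries of the first kind were made from CCR6+Foxp3EGFP+ Il4raR576 cells and the 4 of the second kind from CCR6-Foxp3EGFP+ Il4raR576 cells. All 7 libraries carry Il4raR576, a variant allele of the gene for the interleukin-4 receptor, and mark Foxp3, the transcription factor of Treg cells, with EGFP. A library with another Il4ra allele was not analysed here, so the effect of the allele is not measured. The cells were sorted from whole lung digests of female mice aged 5 to 7 weeks. The mice had received 100 µg of ovalbumin into the peritoneum, a second injection 2 weeks later and, from day 29, nebulised 1% ovalbumin on 3 days in sessions of 30 min, with cells taken on day 32. Whether each library is a mouse of its own or a pool is not in the labels, so a p-value reflects only how far the libraries scatter, and part of that scatter may be technical.

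Prostaglandins and leukotrienes are lipid mediators made from arachidonic acid. Cyclooxygenases, of which Ptgs2 encodes the inducible form, open the prostaglandin branch, and the synthase encoded by Hpgds makes prostaglandin D2. The 5-lipoxygenase, helped by the protein that Alox5ap encodes, opens the leukotriene branch. Both kinds of mediator act through G protein-coupled receptors and are known in the lung as products of mast cells, eosinophils and macrophages in allergic inflammation. T cells sense prostaglandin E2 through EP2 and EP4, the products of Ptger2 and Ptger4, and prostacyclin through IP, the product of Ptgir.

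The sequences upstream of 4 of the genes are shown because they stand for the 4 patterns seen across the libraries: Hpgds, whose groups were apart, Ltb4r1, whose groups touched, Ptger4, whose groups overlapped throughout, and Ptgs2, which was high in 1 library. RefSeq windows on GRCm38.p6 were matched by symbol for 7 of the 9 genes, the 4 shown and Ptgdr2, Ptger2 and Ptgir, but not for Alox5ap and Cysltr1. Each window is the 250 bases before the RefSeq start, printed 5′ to 3′ on the strand of the gene. GENCODE M21 starts Hpgds further upstream, so the 178 bases of its window that lie inside that gene model are left off and 72 are printed. Capitals mark matches, on either strand, to the RUNX motif TGTGGT.
Hpgds: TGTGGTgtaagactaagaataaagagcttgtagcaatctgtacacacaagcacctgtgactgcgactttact
Ltb4r1: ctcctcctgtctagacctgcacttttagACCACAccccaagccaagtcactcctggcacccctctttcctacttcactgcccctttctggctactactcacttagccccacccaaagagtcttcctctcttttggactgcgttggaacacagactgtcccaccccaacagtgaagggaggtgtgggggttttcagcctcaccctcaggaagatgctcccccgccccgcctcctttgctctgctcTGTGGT
Ptger4: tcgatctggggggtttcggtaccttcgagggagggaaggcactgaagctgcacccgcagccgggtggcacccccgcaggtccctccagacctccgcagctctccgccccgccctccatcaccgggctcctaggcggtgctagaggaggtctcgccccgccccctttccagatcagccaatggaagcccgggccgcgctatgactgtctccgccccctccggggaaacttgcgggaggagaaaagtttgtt
Ptgs2: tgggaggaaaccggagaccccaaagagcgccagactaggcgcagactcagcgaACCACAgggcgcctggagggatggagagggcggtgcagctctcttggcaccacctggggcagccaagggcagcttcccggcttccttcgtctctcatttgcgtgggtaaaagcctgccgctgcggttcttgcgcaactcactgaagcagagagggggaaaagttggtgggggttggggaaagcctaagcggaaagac
The printed Hpgds bases lie at chr6:65144909-65144980 on the minus strand, those of Ltb4r1 at chr14:55765712-55765961 on the plus strand, those of Ptger4 at chr15:5244188-5244437 on the minus strand and those of Ptgs2 at chr1:150099781-150100030 on the plus strand. The search covered 8 motifs: AGGTCA of ROR receptors, CACGTG of bHLH factors, ACGTCA of CREB, AGATAA of GATA factors, TGANTCA of AP-1, TTCNNNGAA of STAT factors, TGTGGT of RUNX factors and the TATA box TATAAA. Counted from the RefSeq start, the RUNX letters were found 250 to 245 bases before Hpgds and 197 to 192 bases before Ptgs2. For Ltb4r1 they were found at 222 to 217 and 6 to 1 bases before it. In Hpgds they are the first of the 72 bases printed before the GENCODE start. Of the 32851 RefSeq windows, 14.0% hold these letters, and 3 of the 7 windows of the set did. None of the other 7 motifs was present in the windows of the set, while between 6.02% and 14.0% of all windows hold each of them. The G and C content of the whole window was 45.2% for Hpgds, 56.8% for Ltb4r1, 66.8% for Ptger4 and 61.6% for Ptgs2, against a median of 52.4% over all windows.

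The deposited values are normalised counts, the reads of a gene divided by a size factor of the library. The whole reads behind them came to 11607780 to 35182288 per CCR6+ library and 31083571 to 47261246 per CCR6- library. Ccr6 stood at 7309, 2750 and 6406 normalised counts in CCR6+ replicates 1 to 3, against 271 to 909 in the CCR6- libraries. Foxp3 stood at 12206 to 50875 in CCR6+ libraries and 19376 to 39097 in CCR6- libraries. It and the other 9 Treg markers were above 0 in every library, as were the 6 T cell markers found in the files. CCR6+ replicate 2 stood apart. It was the shallowest library, 1 read of it is worth 2.27 normalised counts, its summed Treg markers were 77770 normalised counts against 176918 to 241313 in the other 6 libraries, and its summed endothelial and stromal markers were 66954 against 5544 to 10358. It held the highest value of 43.6% of the 14582 genes tested, and results are therefore given with and without it. Genes were tested if they had at least 10 normalised counts in at least 3 libraries. Differences are CCR6+ minus CCR6- on the log2(normalised count + 1) scale, which understates changes of low genes, with the standard error (SE) and the Benjamini-Hochberg adjusted p of limma over all genes tested, at a threshold of 0.05.

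Hpgds, on mm10 chromosome 6 from 65117293 to 65144908 with 6 exons, was higher in each CCR6+ library than in any CCR6- library. Its normalised counts were 131, 173 and 121 in CCR6+ replicates 1 to 3, against 49.2, 35.6, 69.9 and 44.0 in CCR6- replicates 1 to 4. The lowest CCR6+ library was replicate 3 and the highest CCR6- library was replicate 3, and a gap separated the groups. The mean was 142 ± 27.5 in CCR6+ libraries (SD, n = 3) and 49.7 ± 14.6 in CCR6- libraries (SD, n = 4), a ratio of 2.85. The log2 difference was 1.52 (SE 0.27), with an unadjusted p of 0.00122, rank 55 of the genes tested, and did not pass adjustment (limma adjusted p = 0.302). Without CCR6+ replicate 2 it was 1.37 (SE 0.30, limma adjusted p = 0.466), and the groups were still apart. The values rest on 153, 76 and 119 reads in CCR6+ replicates and on 52, 43, 76 and 65 reads in CCR6- replicates. CCR6+ replicate 2 and CCR6- replicate 3 thus had 76 reads each, which come to 6.55 and 2.42 CPM, computed from all recovered reads of each library. With quantile normalization the log2 difference of Hpgds was -0.053, and 0.80 when CCR6+ replicate 2 was left out as well. In bulk libraries, fewer cells of a kind and less RNA per cell cannot be told apart.

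Hpgds is known from mast cells, macrophages, TH2 cells and innate lymphoid cells, so markers of these were set beside it. The summed 14 markers of eosinophils, neutrophils, basophils and mast cells were 4576 to 15400 normalised counts in CCR6+ libraries and 1710 to 3315 in CCR6- libraries, with no overlap. Of these markers 3 were at 0 in a CCR6+ library (Prg2, Epx and Ms4a2) and 5 in a CCR6- library (the same and Siglecf and Mcpt8), and Ccr3 and Kit had the highest means. Of the 12 tested, 11 had positive log2 differences, and their list's median was 2.58 with all libraries and 1.35 when CCR6+ replicate 2 was left out. Taken singly, the groups were apart for 2 of the 12, Kit and Csf3r, both higher in CCR6+ libraries, beside 7.96% of all genes tested. Ms4a2 and Cpa3 overlapped between the groups. Cpa3 stood at 2.58, 287 and 48.7 in CCR6+ replicates 1 to 3, against 101, 1.66, 17.5 and 3.38 in CCR6- replicates 1 to 4. The summed 12 macrophage and monocyte markers were 63698, 134929 and 16254 in CCR6+ replicates 1 to 3, against 36899, 42822, 10632 and 5944 in CCR6- replicates 1 to 4. The sums of the groups overlapped, and 11 of the 11 tested macrophage and monocyte markers had positive differences, the median being 2.35 with all libraries and 1.44 when CCR6+ replicate 2 was left out. Marco was at 0 in a CCR6+ library, and Adgre1, Marco and Mrc1 in a CCR6- library. The 8 TH2 and innate lymphoid markers summed to 13289 to 35319 in CCR6+ libraries and 15293 to 23628 in CCR6- libraries. Gata3 and Il1rl1 had the highest means, 9516 and 9283, against 32.6, 45.5 and 8.82 for Il4, Il5 and Il13. The sums thus mostly follow Gata3 and Il1rl1 and say little of the cytokine genes. Of the 6 tested, 5 had positive log2 differences and 1 a negative one. The median was 0.53 with all libraries and 0.59 when CCR6+ replicate 2 was left out. Il4, Il5 and Il13 were highest in CCR6+ replicate 2, at 187, 243 and 56.9. Il5 and Il13 were at 0 in a CCR6+ library, and Il13 in a CCR6- library. Positive differences were not limited to these lists. They held for 9 of 9 tested B cell, 8 of 9 dendritic, 11 of 11 epithelial and 12 of 12 endothelial and stromal markers. Over all genes tested the share was 56.9%. The medians of those lists were 2.16, 2.09, 2.20 and 2.47, and 1.74, 1.26, 0.76 and 1.05 without CCR6+ replicate 2. Of Treg, T cell and CD8, NK and gamma-delta markers, 2 of 10, 2 of 6 and 4 of 8 were positive. The part of granulocyte, mast cell, macrophage, TH2 and innate lymphoid transcripts in the Hpgds difference was not tested.

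**Figure D1:**
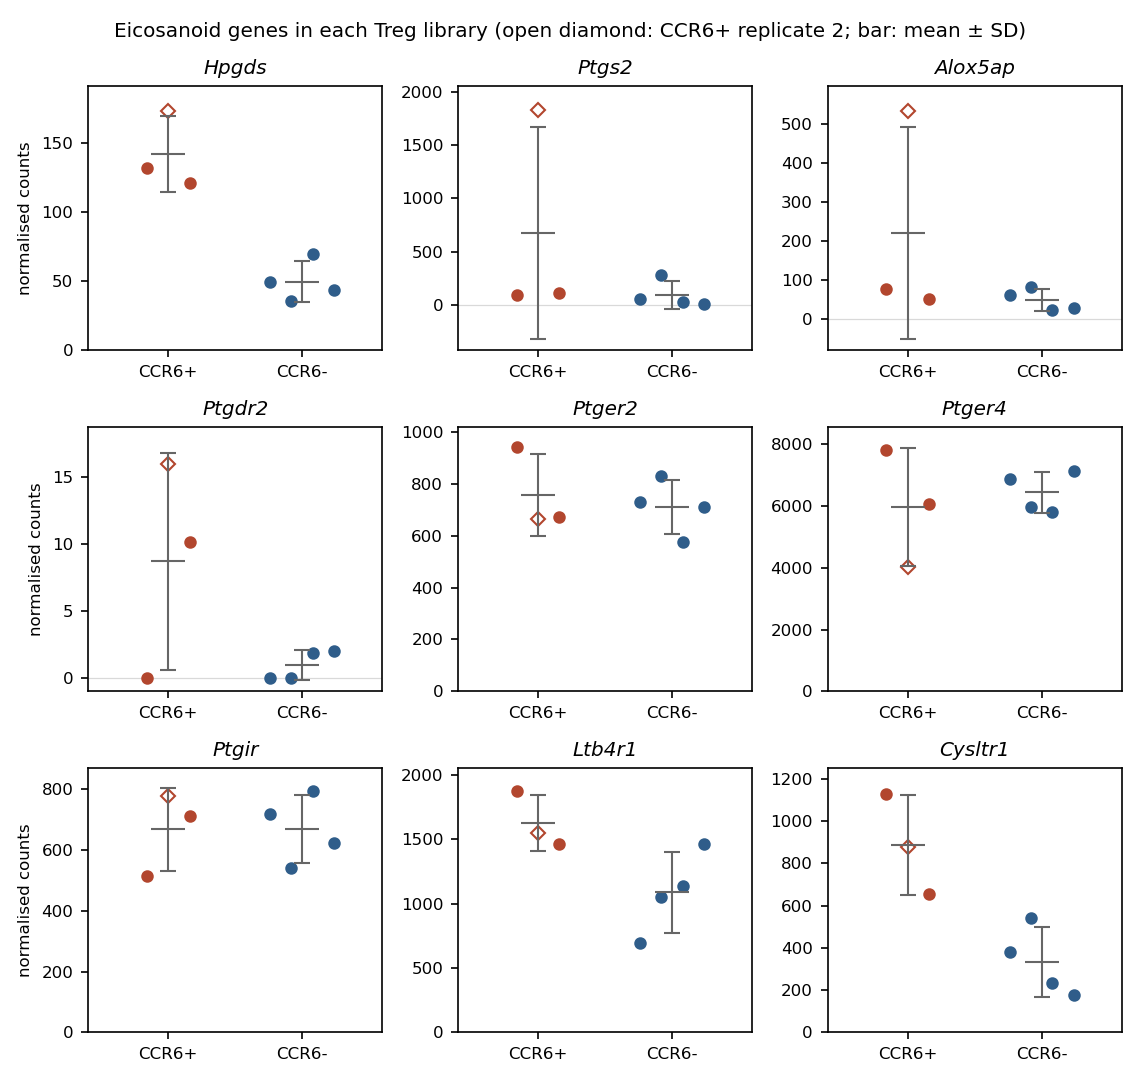
Normalised counts (vertical axis, 0 included, with its own scale per gene) of the 9 genes in the 3 CCR6+ and 4 CCR6- libraries. Points are libraries, the open diamond is CCR6+ replicate 2, and bars give mean ± SD. Hpgds and Cysltr1 have no CCR6- library at the level of a CCR6+ one, whereas Ptgs2 and Alox5ap are high in the open diamond and overlap otherwise.

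Ptgs2 and Alox5ap, which act at the opening of the prostaglandin and leukotriene branches, were high in CCR6+ replicate 2 and overlapped between the groups in the other libraries. Ptgs2, on chromosome 1 from 150100031 to 150108227, stood at 94.5, 1827 and 107 normalised counts in CCR6+ replicates 1 to 3, against 53.9, 283, 24.8 and 8.12 in CCR6- replicates 1 to 4. CCR6+ replicate 2 was 6.45 times the next library, CCR6- replicate 2, which in turn was above CCR6+ replicates 1 and 3. Between the groups Ptgs2 differed by 2.60 on the log2 scale (SE 1.52, limma adjusted p = 0.525) with all libraries and by 1.21 (SE 1.36, limma adjusted p = 0.912) without CCR6+ replicate 2. The ratio of the means was 7.30 with that library and 1.09 without it. The Ptgs2 values rest on 110, 803 and 105 reads in CCR6+ replicates and 57, 342, 27 and 12 reads in CCR6- replicates.

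Alox5ap, on chromosome 5 from 149264767 to 149288153, stood at 77.3, 532 and 50.8 normalised counts in CCR6+ replicates 1 to 3, against 62.4, 83.7, 23.0 and 29.1 in CCR6- replicates 1 to 4. CCR6+ replicate 2 was 6.36 times the next library, and CCR6+ replicates 1 and 3 lay within the range of the CCR6- libraries. Alox5ap differed by 1.54 on the log2 scale (SE 0.91, limma adjusted p = 0.526) with all libraries and by 0.52 (SE 0.60, limma adjusted p = 0.915) without CCR6+ replicate 2. Macrophage and monocyte, dendritic, epithelial, and endothelial and stromal marker sums were also highest in CCR6+ replicate 2, at 134929, 104202, 78855 and 66954. The highest sums of the other 6 libraries were 63698, 28943, 11741 and 10358 for those lists, and their part in the Ptgs2 and Alox5ap values was not tested. Marco, Clec9a, Siglech, Foxj1, Pdgfra and Pdgfrb were the markers of these 4 lists at 0 in a CCR6+ library, and Adgre1, Marco, Mrc1, Nkx2-1, Foxj1, Tek and Vwf were those at 0 in a CCR6- library. Of the exonic bases of Alox5ap, 13.3% overlap an antisense gene, whose reads cannot be told apart without strand.

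The receptor genes Ptger2 and Ptger4, for prostaglandin E2, and Ptgir, for prostacyclin, showed no group difference beyond the spread between libraries. Ptger4, on chromosome 15 from 5206661 to 5244187, stood at 7814, 4017 and 6048 normalised counts in CCR6+ replicates 1 to 3, against 6873, 5952, 5792 and 7141 in CCR6- replicates 1 to 4. CCR6+ replicates 1 and 2 were the highest and the lowest of all libraries. Ptger4 had a log2 difference of -0.16 (SE 0.26, 95% confidence interval -0.78 to 0.47, limma adjusted p = 0.773), and of 0.10 (interval -0.41 to 0.61) without CCR6+ replicate 2, which reverses its sign. Of the exonic bases of Ptger4, 16.5% overlap other annotated genes on the opposite strand, and of those of Ptger2 4.74%.

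Ptger2, on chromosome 14 from 44988195 to 45003820, stood at 940, 662 and 670 normalised counts in CCR6+ replicates 1 to 3, against 728, 830, 575 and 709 in CCR6- replicates 1 to 4. The CCR6+ values lie on both sides of most CCR6- values. For Ptger2 the log2 difference was 0.084 (SE 0.21, interval -0.43 to 0.60, limma adjusted p = 0.856), and 0.17 (interval -0.44 to 0.78) without CCR6+ replicate 2. Ptgir, on chromosome 7 from 16906490 to 16910905, stood at 514, 776 and 711 in CCR6+ replicates 1 to 3, against 719, 539, 792 and 623 in CCR6- replicates 1 to 4. The lowest Ptgir value was in CCR6+ replicate 1 and the highest in CCR6- replicate 3. Its log2 difference was -0.010 (SE 0.23, interval -0.56 to 0.54, limma adjusted p = 0.984), and -0.13 (interval -0.76 to 0.49) without CCR6+ replicate 2. For these 3 genes the intervals with all libraries reached down to -0.78, for Ptger4, and up to 0.60, for Ptger2. They hold for these libraries and this scaling only and do not exclude larger differences. The Ptger4 difference itself ranged from -0.38 without CCR6+ replicate 1 to 0.10 without CCR6+ replicate 2.

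Ptgdr2, which encodes the prostaglandin D2 receptor CRTH2 of TH2 cells, was near the detection limit. It had 0, 7 and 10 reads in CCR6+ replicates 1 to 3, against 0, 0, 2 and 3 reads in CCR6- replicates 1 to 4. Those reads come to 0, 15.9 and 10.2 normalised counts in CCR6+ libraries and to 0, 0, 1.84 and 2.03 in CCR6- libraries. No CCR6- library exceeded 3 reads, the number that a count of 0 still allows, which is worth 2.03 to 6.82 normalised counts depending on the library and covers counting error only. Ptgdr2 missed the limit for testing, so it has no adjusted p, and no fold is given. Its gene, on chromosome 19 from 10937160 to 10942511, shares 39.0% of its exonic bases with Ccdc86 on the opposite strand.

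The leukotriene receptor genes Cysltr1 and Ltb4r1 had higher means in the CCR6+ libraries, Cysltr1 without overlap between the groups and Ltb4r1 with the groups touching, and neither passed adjustment. Cysltr1, a receptor of the cysteinyl leukotrienes on chromosome X from 106574346 to 106603679 with 4 exons, stood at 1130, 876 and 656 normalised counts in CCR6+ replicates 1 to 3, against 379, 543, 233 and 178 in CCR6- replicates 1 to 4. The lowest CCR6+ library, replicate 3, was above the highest CCR6- library, replicate 2. The mean was 887 ± 237 in CCR6+ libraries (SD, n = 3) and 333 ± 164 in CCR6- libraries (SD, n = 4), a ratio of 2.66. The log2 difference was 1.51 (SE 0.43, unadjusted p = 0.0122) and did not pass adjustment (limma adjusted p = 0.435). Without CCR6+ replicate 2 the difference was of the same size, 1.50 (SE 0.53, limma adjusted p = 0.684), and the ratio of means was 2.68. The granulocyte, mast cell, macrophage and monocyte markers given above had mostly positive differences beside Cysltr1 too. So had the B cell, dendritic, epithelial, and endothelial and stromal markers. The part of these markers' cells in the Cysltr1 difference was not tested.

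Ltb4r1, the high-affinity receptor of leukotriene B4 on chromosome 14 from 55765962 to 55768494, stood at 1874, 1547 and 1460 normalised counts in CCR6+ replicates 1 to 3, against 697, 1054, 1139 and 1460 in CCR6- replicates 1 to 4. CCR6+ replicate 3, at 1459.68, and CCR6- replicate 4, at 1459.89, were level, and the other libraries of the 2 groups did not cross. The mean was 1627 ± 218 in CCR6+ libraries (SD, n = 3) and 1088 ± 314 in CCR6- libraries (SD, n = 4), a ratio of 1.50. The log2 difference was 0.62 (SE 0.28, interval -0.056 to 1.30, limma adjusted p = 0.479), and 0.65 (SE 0.34, limma adjusted p = 0.817) without CCR6+ replicate 2. Whether the groups touch depends on the scaling. As CPM of recovered reads, Ltb4r1 was at 62.0, 58.6 and 52.3 in CCR6+ replicates 1 to 3, against 23.7, 35.9, 39.4 and 45.6 in CCR6- replicates 1 to 4, with no overlap.

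**Figure D2:**
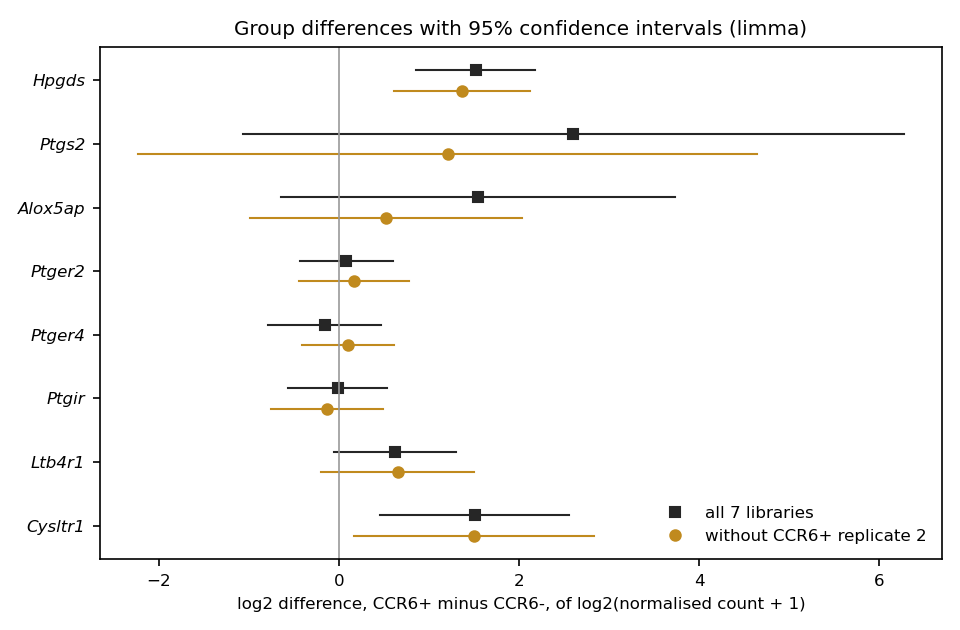
Difference of each tested gene, CCR6+ minus CCR6-, on the log2(normalised count + 1) scale (horizontal axis), from limma. Squares are the fit to all 7 libraries, circles the fit without CCR6+ replicate 2, and lines are 95% confidence intervals. Hpgds (1.52 and 1.37) and Cysltr1 (1.51 and 1.50) change little when that library is left out, while Ptgs2 (2.60 and 1.21) and Alox5ap (1.54 and 0.52) change more.

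Of the 9 genes, 8 passed the filter and 0 passed the adjusted threshold of limma, with all libraries and without CCR6+ replicate 2 alike, as did 0% of all 14582 genes tested. At an unadjusted p under 0.05, 2 of the 8 were higher, Hpgds and Cysltr1, and 0 lower. Over all genes tested 10.6% met that rule, 8.22% higher and 2.35% lower. Without CCR6+ replicate 2 it was 6.89%, 4.57% higher and 2.32% lower, and Hpgds and Cysltr1 were again the 2 genes of the set. The difference was above 0 for 6 of the 8, where 56.9% of all genes were above 0, and for 7 of the 8 without CCR6+ replicate 2, where 53.6% were. The groups did not overlap for these 2 genes, higher in CCR6+ cells, and for 0 of the set lower, against 7.96% of all genes higher and 5.53% lower, 13.5% in all. Without CCR6+ replicate 2 the corresponding shares of all genes were 10.5% and 8.62%, 19.2% in all, and those 2 genes remained apart. The median log2 difference of the 8 was 1.06, against 0.097 over all genes tested, and 0.59 against 0.037 without CCR6+ replicate 2. The genes were chosen with earlier results of these data known, so these counts and medians beside all genes are description only. EdgeR on the recovered reads called 0 of the 8, with adjusted p = 0.319 for Hpgds and 0.314 for Cysltr1, and 0.0137% of all genes. DESeq2 gave no adjusted p for Ptgs2 with all libraries. Of the rest of the 8 it called 2, Hpgds (adjusted p = 0.0438) and Cysltr1 (adjusted p = 0.0471), both higher. It called 5.03% of all genes with an adjusted p, 4.03% higher and 1.01% lower. It called 0 of the 8 without CCR6+ replicate 2, with adjusted p = 0.380 and 0.143 for these genes and 1.5% of all genes called, 0.845% higher and 0.65% lower.

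Set per kb of exon, Ltb4r1 and Ptger4 had the highest means of the set and Ptgdr2 the lowest. The mean over the 7 libraries was 946 normalised counts per kb for Ltb4r1 and 938 for Ptger4, at percentiles 88.5 and 88.3 of the genes tested. Their order differed by group in these libraries: Ltb4r1 was above Ptger4 in the 3 CCR6+ libraries, with means of 1167 and 896 per kb, and below it in the 4 CCR6- libraries, with means of 780.2 and 969 per kb. In CCR6- replicate 4 they were close, at 1047 for Ltb4r1 and 1074 for Ptger4. This turn of the order was not tested, and it depends on the exon lengths used, since the gene models of the counting are not known. Ptgir followed at 200.2 and Ptger2 at 141, well below: the highest Ptgir value, 237, was under the lowest Ptger4 value, 604. Cysltr1 averaged 111 per kb over all libraries, 173 ± 46.1 in CCR6+ libraries (SD, n = 3) and 64.8 ± 31.8 in CCR6- libraries (SD, n = 4). Its range overlapped that of Ptger2, which it exceeded in CCR6+ replicates 1 and 2. Alox5ap averaged 86.4 and Ptgs2 74.8, means raised by CCR6+ replicate 2, where they reached 375 and 399. Hpgds averaged 13.9 per kb, at percentile 17.3, and Ptgdr2 1.62. From Cysltr1 to Hpgds the range of each gene over the libraries overlapped that of the next.

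**Figure D3:**
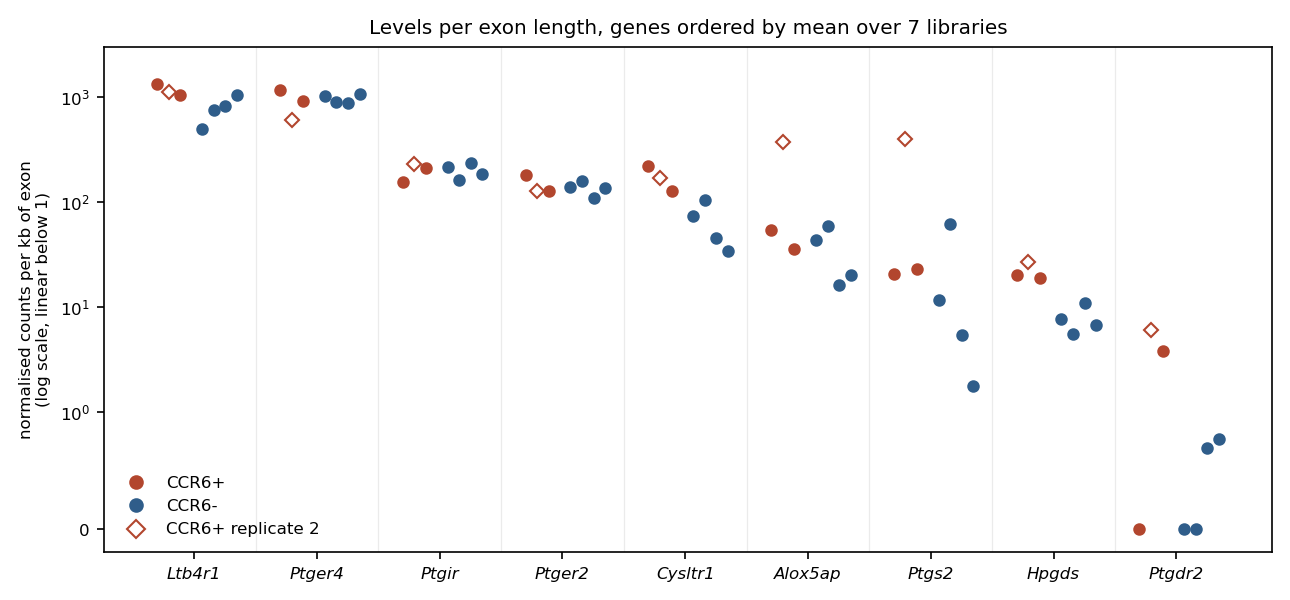
Normalised counts per kb of exon (vertical axis, log scale that is linear below 1) of the 9 genes, ordered by their mean. Points are libraries, CCR6+ left and CCR6- right within each gene, and the open diamond is CCR6+ replicate 2. Ltb4r1 and Ptger4 lie above the other 7 genes, and the CCR6+ and CCR6- points of Ptger4, Ptger2 and Ptgir intermingle.

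The other genes of the pathway came from a list of 35, also chosen with earlier results known, of which 34 were found in the files and 29 tested. By limma, 0 passed adjustment. At an unadjusted p under 0.05, 6 were higher and 3 lower in CCR6+ cells, beside 8.22% and 2.35% of all genes. Without CCR6+ replicate 2 these numbers were 1 and 1. The median log2 difference was 0.52, or 0.18 without CCR6+ replicate 2. CCR6+ replicate 2 held the highest value of 15 of the 29, 51.7%, and of 3 of the 8 tested genes of the set, 37.5%, beside 43.6% of all genes tested.

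Among the 15 tested genes of prostanoid synthesis and breakdown, 8 had positive and 7 negative differences. The transporter gene Abcc4, which exports prostaglandins, and the synthase gene Ptges3 had log2 differences of -0.00043 and -0.058. Akr1b3, an aldo-keto reductase gene, was at -0.16. Hpgd, for the enzyme that inactivates prostaglandins, and Slco2a1, for the transporter that takes them up, were dominated by 1 library. Hpgd stood at 183, 5935 and 510 normalised counts in CCR6+ replicates 1 to 3, against 100.3, 212, 104 and 4.06 in CCR6- replicates 1 to 4. Slco2a1 stood at 191, 6556 and 621 in CCR6+ libraries, against 52.0, 129, 126 and 0 in CCR6- libraries. The groups of Hpgd overlapped with and without CCR6+ replicate 2, whereas those of Slco2a1 were apart both times, higher in CCR6+ libraries. Their log2 differences were 3.82 (SE 1.69) and 4.91 (SE 2.09), and 2.40 and 3.50 without CCR6+ replicate 2. The endothelial and stromal markers peaked in that same library, and their part in these values was not tested.

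Of the prostanoid receptors outside the set, 3 were tested. Ptger1, for EP1, had a log2 difference of 0.036. Ptger3, for EP3, stood at 66.2, 141 and 102 normalised counts in CCR6+ libraries, against 30.3, 42.3, 56.1 and 17.6 in CCR6- libraries, with a log2 difference of 1.52 (SE 0.45, limma adjusted p = 0.440), and 1.26 without CCR6+ replicate 2. Tbxa2r, the thromboxane receptor gene, ran the other way, at 1239, 835 and 963 in CCR6+ libraries, against 1324, 1582, 1629 and 1949 in CCR6- libraries. The difference of Tbxa2r was -0.68 (SE 0.22, limma adjusted p = 0.444), and -0.56 without CCR6+ replicate 2. Ptger3 and Tbxa2r had groups that did not overlap, as had 7.96% of all genes tested higher and 5.53% lower.

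In the leukotriene branch, 9 synthesis genes were tested, 5 with positive and 4 with negative differences. Lta4h, whose product makes leukotriene B4, stood lower in CCR6+ cells without overlap, at 4416, 3135 and 4833 normalised counts, against 5452, 6593, 6203 and 8116 in CCR6- libraries. Its difference was -0.68 (SE 0.23, limma adjusted p = 0.449), and -0.50 without CCR6+ replicate 2. Alox5, the 5-lipoxygenase gene, stood at 192, 835 and 143 in CCR6+ libraries, against 141, 76.2, 31.3 and 9.48 in CCR6- libraries. Its difference was 2.70 (SE 1.05, limma adjusted p = 0.466), and 1.93 without CCR6+ replicate 2, and its groups were apart both times. Mgst2, a leukotriene C4 synthase of the glutathione transferase family, Alox15 and Ggt1 had differences of -0.72, 2.07 and -0.74 with overlapping groups. They were -0.71, 1.13 and -1.56 without CCR6+ replicate 2. The groups of Ggt1 were then apart, lower in CCR6+ libraries, as were those of 8.62% of all genes tested. Of the receptors, the cysteinyl leukotriene receptor gene Cysltr2 was at 0.062, and 0.56 without CCR6+ replicate 2, and the formyl peptide receptor gene Fpr2 at 1.85, and 0.84. The third gene lower at an unadjusted p under 0.05, beside Tbxa2r and Lta4h, was the phospholipase gene Pla2g4b, named after its values were seen, at 6.44 ± 2.30 in CCR6+ and 24.9 ± 13.1 in CCR6- libraries (SD, n = 3 and n = 4). DESeq2 gave no adjusted p for Pla2g4a, Pla2g4b, Ptgis, Ltc4s and Dpep1 with all libraries. Of the other pathway genes with an adjusted p it called 3, Tbxas1 and Hpgd higher and Lta4h lower, beside 5.03% of all such genes. Without CCR6+ replicate 2 it called 0, beside 1.5% of all genes with an adjusted p, and gave none for Pla2g4b, Ptges, Ltc4s and Dpep1. Tbxas1, like Hpgd, was highest in CCR6+ replicate 2. It stood at 265, 876 and 176 in CCR6+ replicates 1 to 3, against 138, 74.6, 96.6 and 33.8 in CCR6- replicates 1 to 4. The groups of Tbxas1 were apart with and without CCR6+ replicate 2.

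**Figure D4:**
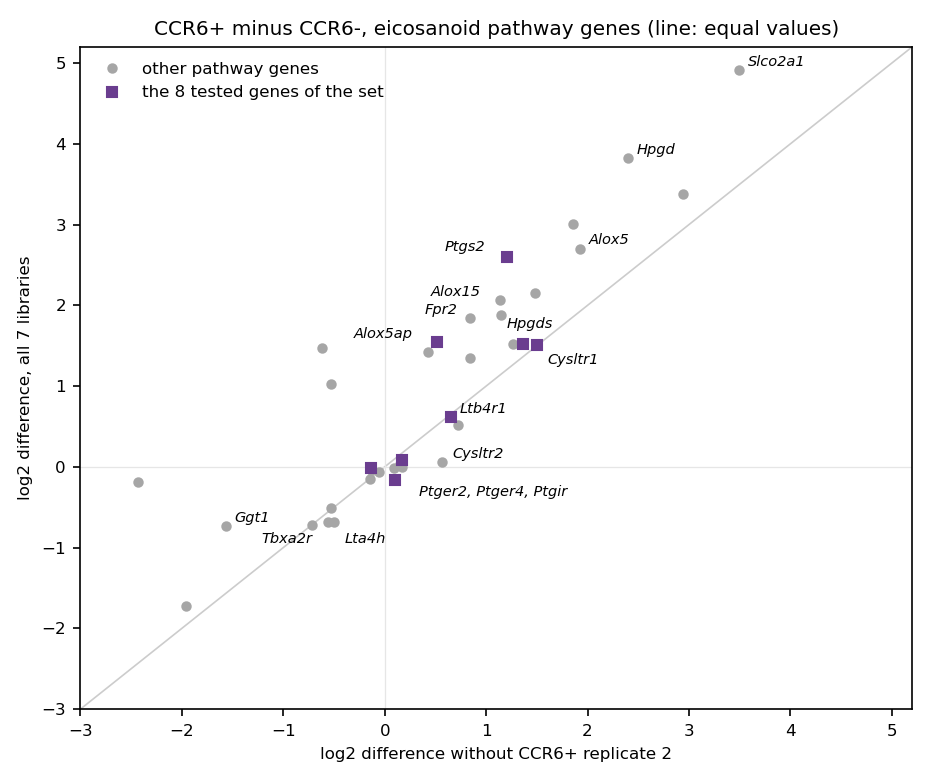
Log2 differences, CCR6+ minus CCR6-, of the 8 tested genes of the set (squares) and 29 other pathway genes (grey points), from the fit to all 7 libraries (vertical axis) and the fit without CCR6+ replicate 2 (horizontal axis). On the line both values are equal. Hpgds, Cysltr1 and Ltb4r1 lie near the line, while Ptgs2, Alox5ap, Hpgd and Slco2a1 lie above it.

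The gene with the smallest p of the set, with and without CCR6+ replicate 2, was Hpgds, and the genes most like it over the 7 libraries were sought by Pearson r of log2(normalised count + 1) among 11961 genes with a mean of at least 50. These were Stab1, a scavenger receptor gene (r = 0.99), the sorting nexin gene Snx22 (r = 0.99), Sfrp2, a secreted WNT modulator gene (r = 0.98), Il17re, an interleukin-17 family receptor gene (r = 0.98), and Ccdc67 (r = 0.98). With 7 libraries that share the 2 groups and 1 deviating library, such values describe the pattern only. Each of the 5 peaked in CCR6+ replicate 2, with log2 differences of 3.33 to 5.10. Cysltr1, taken up after its values were seen, was most like Arl14ep (r = 0.98), whose difference was 0.21.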

How the data were processed

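RNA was measured in 3 CCR6+ and 4 CCR6- libraries. SMART-Seq v4 cDNA was sheared and made into libraries by KAPA Hyper Prep, per the labels' protocols, which mention no strand marking. The deposited signal per gene is a normalised count: reads scaled by the authors with 1 size factor for each library, as read from the deposited values, 100% of which are whole multiples of a step within 0.001 reads. The build mm10 and the tools DESeq2 1.6.3, HTSeq 0.6.1p1 and STAR 2.5.1b are named in the submitters' processing notes. Gene models and strand setting of the counting were not given in the sources used here. Dividing by the step recovered whole reads.

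The members and lists were chosen with earlier results of these data known. Limma 3.58.1 (R 4.3.3) was run two-sided on log2(value + 1), with no covariate, over 14582 genes with values of at least 10 in at least 3 libraries, with Benjamini-Hochberg adjustment at 0.05, with and without CCR6+ replicate 2. Confidence intervals are at 95% from limma. EdgeR 4.0.16 and DESeq2 1.42.0 were run on the recovered reads, and DESeq2 gave no adjusted p for 1095 genes. The scripts were tested on simulated counts with 200 changed genes. Positions, exon lengths and overlaps are from GENCODE M21 on mm10, and upstream sequences from RefSeq on GRCm38.p6. No pair of libraries agreed within read sampling noise. Named were all 9 genes, up to 5 genes of highest mean per pathway list, and the 5 genes most like the member of smallest p, without unnamed transcripts. Other pseudocounts, filters, scalings, weights, a replicate block and leaving out each library were the alternatives. The 27 date-like symbols were kept but not named.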

Additional observations from a re-analysis of the deposited data

Results flagged for a closer look

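The 4 CCR6- libraries were searched for a lone deviating value in each gene of the set and of the wider pathway, in each marker sum and in depth and dropout. Such a value stood out in 2 of 50 cases, and about 1 in 20 is flagged by chance. Ptgs2 stood at 283 normalised counts in CCR6- replicate 2, against 8.12 to 53.9 in the other CCR6- libraries. Ptges, a prostaglandin E synthase gene, is listed at 0 in CCR6- replicate 4, against 15.1 to 18.2 in the others. The search used values without a log, unlike the tests, and whether a value stands out can depend on that scale. The 3 CCR6+ libraries were not searched in this way.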

How the results depend on the processing

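Limma called 0 genes with all libraries. The count was 1 with a pseudocount of 0.5 and with TMM scaling, 2 with a pseudocount of 8, with a mean of at least 100 and with edgeR, 4 with quantile normalization, 10 with limma-trend and robust moderation, 679 with DESeq2 and 2486 with arrayWeights. Leaving out 1 library gave 0 to 1, with 1 when CCR6+ replicate 1 was left out. Of the 9 genes, 2 were called with arrayWeights, which down-weights deviating libraries, and 2 with DESeq2, Hpgds and Cysltr1 each time (adjusted p = 0.0155 and 0.0308 with arrayWeights), and of the other pathway genes 8 and 3. In the other settings 0 of both were called. Without CCR6+ replicate 2, edgeR called 2 genes, DESeq2 184, and leaving out a further library gave 0 to 9, with 9 when CCR6- replicate 3 was left out. None of the 9 was among them.

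The direction of Cysltr1, Ltb4r1 and Ptgs2 was the same in all 22 settings, at log2 differences of 1.10 to 1.79, 0.42 to 0.78 and 0.072 to 3.50. That of Hpgds held in all of its 21 settings except quantile normalization, at -0.053, where the median of all genes was -0.082, against 0.097 as deposited, 0.18 with equal totals and 0.0085 with TMM scaling, and the cause was not tested. Alox5ap turned to -0.32 with quantile normalization without CCR6+ replicate 2. Ptger2 turned to -0.0038 with TMM scaling, -0.15 with quantile normalization, -0.081 without CCR6+ replicate 1 and -0.013 without CCR6- replicate 3, in a leave-one-out range of -0.081 to 0.17. Ptger4 turned to 0.10 without CCR6+ replicate 2, in a leave-one-out range of -0.38 to 0.10, and then to 0.15 with quantile normalization, 0.053 with edgeR and 0.12 with DESeq2. Ptgir turned to 0.076 with equal library totals, 0.17 without CCR6+ replicate 1, 0.030 without CCR6- replicate 1 and 0.076 without CCR6- replicate 3, in a leave-one-out range of -0.13 to 0.17. For these log2 differences, the settings combining another tool or quantile normalization with the loss of CCR6+ replicate 2 were chosen after the data were seen. Some settings could not alter a direction. No filter, a mean of at least 100 and limma-trend leave the log2 difference of a gene unchanged. The replicate block gives the same log2 differences as leaving out CCR6- replicate 4, so these settings are not separate checks of direction.

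Same-numbered libraries deviated together with correlations of -0.13, -0.11 and 0.34 for numbers 1 to 3, and not every library correlated best with its own number. CCR6+ replicate 3 did correlate best with CCR6- replicate 3. The labels do not say whether same numbers mark pairs. The correlations cannot decide it, since 1 deviating library shifts the group mean that the others are set against. With the replicate number as a block limma called 0 genes, and the log2 differences of Hpgds and Cysltr1 were 1.48 (adjusted p = 0.749) and 1.25 (adjusted p = 0.740).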
